A study of Mus musculus with 3 samples.

Results

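Within the Dpp4 and Pi16 expressing progenitors of mouse inguinal fat, 4195 of 9301 cells carried RNA of the orphan nuclear receptor Nr4a3, the AP-1 subunit Fosl1, the pentraxin Nptx2 and the growth-cone protein Gap43 at a sum of at least 3 unique molecular identifiers (UMIs) over the 4 genes. These cells, called activated progenitors here as a working name, were chosen by their own counts, and the labels name no treatment. A cell was admitted when it held at least 3 UMIs of Dpp4 and Pi16, at most 1 UMI of the preadipocyte genes Icam1 and Fabp4, at most 1 UMI of Krtdap, Dmkn, Sbsn and Bmp3, at most 2 UMIs of Cilp and Myoc, and fewer than 10 UMIs of the interferon-induced genes Ifit1, Ifit3, Rsad2 and Isg15. Activated progenitors made up 12.1% of the 34577 cells kept from the whole series and 45.1% of the gated progenitors. They were compared with the 2511 gated progenitors in which the 4 genes summed to 0, called zero-sum cells, while 2595 cells with a sum of 1 or 2 lay between. Because the 18 gate genes chose the cells, they are described without a test.

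The cells came from the subcutaneous inguinal depot of 3 male wild-type C57BL/6J mice aged 8 weeks, with 1 droplet library per mouse. Fat was minced and digested with warm collagenase, and CD31- CD45- cells of the stromal vascular fraction (SVF) were sorted, which removes endothelial cells and leukocytes. All mice belong to 1 group, so each comparison below is between cell classes of the same mouse. Barcodes had to show over 500 genes, and mitochondrial UMIs had to stay under 5%. The libraries then held 12984, 6414 and 15179 cells with 94816520, 78108414 and 99328725 UMIs in mice 1, 2 and 3.

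Dpp4+ adipocyte stem cells (ASCs) lie in the fibrous interstitium of fat and can give rise to Icam1+ preadipocytes (PreAs). Immediate early genes such as the Fos, Jun, Egr and Nr4a families are switched on without new protein synthesis when a cell meets a growth factor, a cytokine or stress, and their RNAs differ in how long they last. Many of their products are transcription factors: Fos and Jun proteins pair to form AP-1, whereas Nr4a receptors act without a known hormone. NF-kB drives many chemokine genes, and NRF2 drives genes that protect against oxidants.

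In the GRCm38 mouse genome build (mm10), Nr4a3 lies at chr4:48045153-48086447 on the plus strand, Fosl1 at chr19:5447547-5455946 on the plus strand, Nptx2 at chr5:144545902-144557478 on the plus strand and Gap43 at chr16:42248442-42340651 on the minus strand. Srxn1, the sulfiredoxin gene named as a marker of these cells but not used to choose them, lies at chr2:152105516-152111376 on the plus strand. To show the DNA before genes that moved together, 4 RefSeq windows that hold a match to a motif searched are printed, Nr4a3 as the main gate gene, Srxn1 as the marker outside the gate, and the neighbouring chemokine genes Cxcl1 and Cxcl2. Each stretch starts 250 bases before the RefSeq start site and ends before the first base that GENCODE annotates as transcribed. Capitals mark TGACGT (the core of a cyclic AMP response element) in Nr4a3, TGAGTCA (AP-1) in Srxn1 and an NF-kB motif (GGG, 2 bases of any kind, then TTTCC) in the chemokine genes, on either strand. The Cxcl1 window also holds TGACGT once on the other strand, starting 195 bases before the RefSeq start site and left in lower case.
Nr4a3, chr4:48045055-48045152, plus strand: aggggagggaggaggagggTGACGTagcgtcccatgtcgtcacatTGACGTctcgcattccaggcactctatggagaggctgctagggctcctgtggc
Srxn1, chr2:152105274-152105515, plus strand: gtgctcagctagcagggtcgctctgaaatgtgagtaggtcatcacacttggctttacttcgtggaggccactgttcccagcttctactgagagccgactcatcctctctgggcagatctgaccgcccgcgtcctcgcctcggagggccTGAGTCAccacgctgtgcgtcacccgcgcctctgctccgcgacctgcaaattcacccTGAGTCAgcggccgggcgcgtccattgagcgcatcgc
Cxcl2, chr5:90903649-90903870, plus strand: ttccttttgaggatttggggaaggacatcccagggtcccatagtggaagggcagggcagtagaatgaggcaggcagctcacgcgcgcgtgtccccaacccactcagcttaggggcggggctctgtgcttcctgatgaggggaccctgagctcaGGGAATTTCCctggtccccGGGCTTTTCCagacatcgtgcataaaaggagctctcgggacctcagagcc
Cxcl1, chr5:90890995-90891240, plus strand: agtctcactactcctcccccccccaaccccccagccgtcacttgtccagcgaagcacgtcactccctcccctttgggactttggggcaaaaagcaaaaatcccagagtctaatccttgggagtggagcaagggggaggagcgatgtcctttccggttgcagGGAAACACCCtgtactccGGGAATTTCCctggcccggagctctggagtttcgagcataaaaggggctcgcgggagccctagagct

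In the 250 bases before the start site, TGACGT occurred in 6.47% of 32851 RefSeq windows, TGAGTCA in 4.46%, the NF-kB motif in 1.41% and the Nr4a element AAAGGTCA in 1.34%, counted on both strands. The letters of TGACGT can overlap those of AAAGGTCA only at their ends, and no printed match overlapped another. Of the 11 genes described below from the 12 largest rises, Nr4a2, Cxcl2, Emd, Srxn1, Ell2, Eif4e, Eprs and Tiparp had a window. Among these, TGAGTCA was found before Srxn1, the NF-kB motif before Cxcl2, and TGACGT before Ell2 and Eprs, while AAAGGTCA was found before none. A match describes letters in a window and says nothing of binding.

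Nr4a3 supplied most of the 4-gene sum. It accounted for 70.3%, 69.4% and 65.1% of the summed UMIs of activated progenitors in mice 1, 2 and 3, and Fosl1 accounted for 13.9%, 13.9% and 20.4%. In 28.9%, 23.6% and 19% of the cells, Nr4a3 was the only gene of the 4 that was detected. Cells with at least 2 of the genes were the majority in each mouse, at 67.4%, 71.4% and 77.9%, whereas all 4 genes were detected in only 23, 28 and 77 cells. In CPM, the UMIs of a gene over all UMIs of the class in a mouse scaled to 1000000, activated progenitors held Nr4a3 at 625, 656 and 722 CPM, Fosl1 at 123, 131 and 226 CPM, Nptx2 at 92.8, 99.7 and 88.8 CPM and Gap43 at 47.9, 58.6 and 72.8 CPM. Mouse 3 was highest for Nr4a3, Fosl1 and Gap43 and lowest for Nptx2.

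The 4 genes went together in the gated progenitors when each was left out of the choice. Nr4a3 was detected in 77.2%, 81.3% and 78% of cells with at least 3 UMIs of the other 3 genes, against 40.4%, 41.1% and 50.6% of cells without them. Fosl1 was detected in 36.2%, 45.2% and 53.3% of cells rich in the others and in 13.4%, 12.9% and 24.3% of cells without them. Gap43 showed the narrowest gap, at 18.5%, 28.3% and 25.6% against 10.3%, 18.8% and 15.5%. These shares are descriptions of the genes that set the gate, and cells with more UMIs have more chances of showing any of them.

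The sum formed a gradient without a gap at the threshold. A sum of 2, just outside, was found in 383, 94 and 587 cells and a sum of 3, just inside, in 272, 86 and 442 cells of mice 1, 2 and 3. Srxn1 stood at 159.7, 125 and 233 CPM in cells with a sum of 2 and at 148, 132 and 271 CPM in cells with a sum of 3, and Fos stood at 3279.6, 2837 and 2122 CPM against 3014, 2965 and 1771 CPM. The cells on both sides of the line were therefore near each other for these genes, while the far ends of the gradient differed, as described below.

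**Figure D1:**
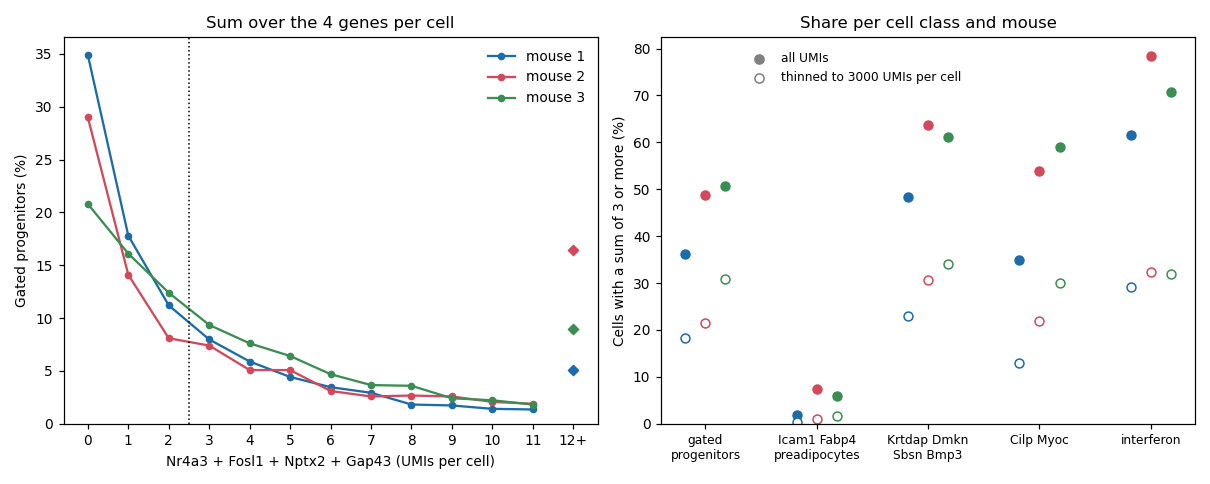
Left, percentage of gated progenitors (y axis) by the number of UMIs of Nr4a3, Fosl1, Nptx2 and Gap43 in the cell (x axis), 1 line per mouse, with diamonds for cells with 12 or more UMIs pooled and a dotted line at the threshold. Right, percentage of cells with a sum of at least 3 in 5 cell classes, 1 point per mouse, filled for all UMIs and open after each cell was thinned to 3000 UMIs, showing gated progenitors at 36.1% to 50.7% and preadipocytes at 1.86% to 7.44% with all UMIs.

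Activated progenitors made up 36.1% of gated progenitors in mouse 1 (exact 95% binomial interval 34.5% to 37.7%), 48.8% in mouse 2 (45.9% to 51.7%) and 50.7% in mouse 3 (49.3% to 52.1%), or 45.2% ± 7.96 (SD, n = 3). These intervals cover counting error only, and that of mouse 1 does not meet the others. Activated progenitors were also deeper, with medians of 7748.5, 11989 and 6860 UMIs per cell and zero-sum cells 6586.5, 11449 and 5463. When each cell was thinned to 3000 UMIs, leaving out 368, 46 and 585 shallower cells, a sum of at least 3 was reached in 18.2%, 21.5% and 30.9% of gated progenitors. Mouse 1 remained lowest and mouse 3 highest. The median mitochondrial share was lower in activated progenitors, at 1.03%, 1.76% and 1.31%, than in zero-sum cells, at 1.44%, 2.13% and 1.7%.

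The same sum was rare in Icam1 Fabp4 preadipocytes, defined by at least 3 UMIs of Icam1 and Fabp4 and at most 1 of Dpp4 and Pi16. It was reached in 36, 92 and 101 preadipocytes, or 1.86%, 7.44% and 5.87%, and after thinning to 3000 UMIs in 0.267%, 1.08% and 1.59%. Every mouse was far below its gated progenitors. Nptx2 was detected in 9.4%, 8.78% and 10.5% of gated progenitors and in 0.374%, 0.333% and 0.918% of preadipocytes after thinning. Gap43 was detected in 8.09%, 9.5% and 13.5% of thinned gated progenitors and in 0.0534%, 0% and 0.306% of thinned preadipocytes, and the 0% stands for 0 of 1202 cells, which allows a share of up to 0.25%. Nr4a3 was less unequal, with 39%, 37.4% and 50% against 4.43%, 6.57% and 9.24%. Free RNA was not measured, and its part in the share of either class was not tested. Preadipocytes may also transcribe Nr4a3 and Fosl1.

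Other stromal classes that the gate had left out held the 4 genes as well. With all UMIs, a sum of at least 3 was found in 48.4%, 63.7% and 61.2% of Dpp4 Pi16 cells with at least 3 UMIs of Krtdap, Dmkn, Sbsn and Bmp3. Cells with at least 5 UMIs of Cilp and Myoc reached it in 35%, 53.9% and 59.1%. Dpp4 Pi16 cells with at least 10 UMIs of the interferon genes reached it in 61.5%, 78.5% and 70.8% of only 65, 65 and 72 cells. At 3000 UMIs per cell these classes stood at 29.2% ± 5.63, 21.6% ± 8.56 and 31.1% ± 1.69 (SD, n = 3 each), beside 23.5% ± 6.59 in gated progenitors and 0.979% ± 0.667 in preadipocytes. Within each of the 3 mice the thinned shares of the Krtdap class (23%, 30.6% and 34%) and the interferon class (29.2%, 32.3% and 31.9%) were above that of the gated progenitors, and that of the Cilp Myoc class (12.9%, 22% and 30%) was above it in mouse 2 only. These differences were not tested, whereas preadipocytes stood apart in every mouse.

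The working name was set beside markers. Summed over 9 ASC markers, activated progenitors held 11727, 11302 and 11573 CPM and zero-sum cells 9837, 9576 and 9931 CPM, with Pi16 as the most abundant marker in the former. Pi16 is a gate gene, so this sum is a description and no independent check of the name. Several defining markers of other cells were at 0 in activated progenitors: the leukocyte gene Ptprc and the T cell gene Cd3e were at 0 in each mouse, as were the neuronal genes Snap25, Syt1 and Elavl4 and the adipocyte genes Adipoq and Cidec. The 5 leukocyte markers summed to 3, 4.7 and 4.24 CPM against 2.36, 27.5 and 4.38 CPM in zero-sum cells. In zero-sum cells of mouse 2, Lyz2 gave 21.2 CPM of that sum. The 4 adipocyte markers summed to 0.932, 0 and 1.27 CPM against 3.74, 2.45 and 3.78 CPM. The 4 neuronal markers summed to 3.94, 6.9 and 3.81 CPM, all of it Rbfox3, while Nptx2 and Gap43 were detected in the same cells. The 5 endothelial markers, led by Kdr, summed to 13.6, 3.52 and 3.15 CPM, above the 5.41, 1.91 and 0.996 CPM of zero-sum cells in each mouse. The 5 Schwann markers, led by Mbp, summed to 26.3, 20.1 and 17.7 CPM against 26.1, 28.3 and 18.7 CPM. The 5 mural markers, led by Abcc9, summed to 22.1, 18.7 and 34.3 CPM against 19.7, 19.6 and 30.9 CPM. The 4 muscle markers, led by Des, were higher in each mouse, at 9.32, 8.81 and 7.51 CPM against 6.1, 4.9 and 4.38 CPM, with Pax7 and Myf5 at 0, and Des passed the test (0.83 ± 0.18, edgeR adjusted p = 0.0129). The 4 mesothelial markers, led by Krt19, summed to 7.87, 4.55 and 8.42 CPM against 13.3, 6.53 and 13.1 CPM, and the 4 epithelial markers to 0.207, 0 and 9.26 CPM against 0.139, 0.272 and 6.17 CPM. The part of these markers in the results was not tested. The 4 erythroid markers reached 50.9 CPM in activated progenitors of mouse 3, of which Hbb-bs gave 34.5 CPM, against 4.78 CPM in its zero-sum cells and 4.04 and 2.5 CPM in activated progenitors of mice 1 and 2, and their part in the results was not tested.

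Zero-sum cells held more of the markers of 2 neighbouring stromal types. The 5 PreA markers summed to 788, 688 and 647 CPM in zero-sum cells and to 517, 519 and 417 CPM in activated progenitors, and Lpl supplied most of it. The 4 markers of adipogenesis-regulatory cells (Aregs) summed to 227, 430.1 and 227 CPM in zero-sum cells against 114, 161 and 95.4 CPM, led by Gdf10. The gate genes followed the same course: Pi16 stood at 3284, 3894 and 3191 CPM in activated progenitors against 2369.7, 2652 and 2458 CPM, and Icam1 at 10.4, 8.81 and 19.1 CPM against 19.3, 12.5 and 31.1 CPM. A stricter gate was therefore added after seeing the data, with at least 10 UMIs of Dpp4 and Pi16 and none of Icam1 and Fabp4. Of 149 named genes tested with it, 118 kept their side of the threshold, 30 no longer passed and 1 changed sign.

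The comparison of activated progenitors with zero-sum cells asked which genes outside the gate changed with the 4-gene sum within a mouse. Nr4a2, Nr4a1 and many NF-kB and antioxidant genes were higher in activated progenitors, Fos, Jun and many heat shock and preadipocyte genes were lower, and chemokine genes changed in both directions. Of 11217 genes tested, 1247 were higher (11.1% of those tested) and 782 were lower (6.97%) at an edgeR adjusted p under 0.05, with the mouse as a block. Without mouse 3, which had the most cells, 695 were higher and 280 lower. The split between directions depended on scaling: 61.5% of the genes called were higher with TMM normalization, and 31.6% when only total UMIs were used, which moved the median of all genes from 0.00 to -0.11 on the log2 scale. The medians of 9 lists turned from above to below 0 with that scaling. They were those of MAP kinase feedback, growth factors and elastic fibre genes, given below, and those of the respiratory chain (0.03 to -0.09), interferon genes outside the gate (0.05 to -0.06), matrix proteases (0.05 to -0.07), nerve injury genes (0.04 to -0.08), the unfolded protein response (0.03 to -0.08) and glucocorticoid and circadian genes (0.02 to -0.10).

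Srxn1, which reduces over-oxidized peroxiredoxins, was the marker that the gate had not used. It stood at 223, 285 and 388 CPM in activated progenitors and at 78.5, 52 and 149 CPM in zero-sum cells of mice 1, 2 and 3. The ranges did not overlap, and the log2 difference was 1.84 ± 0.18 (SE, edgeR adjusted p = 0.000229). It was detected in 61.7%, 71.6% and 72.1% of activated progenitors and in 29.1%, 37.7% and 37.1% of zero-sum cells, which were shallower. Srxn1 was thus also found in many zero-sum cells, and the interferon class as a whole held it at 186, 250.3 and 368 CPM, near the levels of activated progenitors.

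Among genes with at least 50 CPM in either class, the largest rise belonged to Nr4a2, a relative of the gate gene Nr4a3. It was found at 95.2, 114 and 93.1 CPM in activated progenitors and at 12.5, 13.1 and 26.5 CPM in zero-sum cells (log2 difference 2.64 ± 0.20, edgeR adjusted p = 8.21e-05). The neutrophil chemokine Cxcl2 followed, with 111, 127 and 238 CPM against 33.3, 9.26 and 64.7 CPM (2.26 ± 0.25, edgeR adjusted p = 0.000391). Both genes were higher in activated progenitors of each mouse by more than the whole spread of the zero-sum values. Hmox1, which breaks down heme, stood at 319, 532 and 929 CPM against 127, 115 and 373 CPM (1.71 ± 0.17, edgeR adjusted p = 0.000225). For Hmox1 the zero-sum cells of mouse 3 were above the activated progenitors of mouse 1, so its difference was seen within mice and not between the pooled ranges.

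Genes of transcription, translation and cell structure completed the rises described. Emd, which encodes the nuclear envelope protein emerin, rose from 62.8, 42.5 and 80.5 CPM to 191, 223 and 242 CPM (log2 difference 1.93 ± 0.15). Ell2, an elongation factor of RNA polymerase II, rose by 1.79 ± 0.17 (SE, log2), Nsd3, a histone methyltransferase, by 1.74 ± 0.14, and Mpp7, a scaffold protein, by 1.69 ± 0.16. Eif4e, which binds the cap of mRNA, stood at 922, 801 and 1129.6 CPM against 366, 174 and 484 CPM (1.69 ± 0.17). Eprs, which charges tRNAs with glutamate and proline, and Tiparp, a target of the aryl hydrocarbon receptor, rose by 1.59 ± 0.09 and 1.56 ± 0.18. Each of these was higher in 3 of 3 mice, and their edgeR adjusted p-values lay between 3.83e-05 and 0.000485. The annotated Emd, Ell2 and Eif4e genes each overlap a small gene on the same strand (Gm14686, Gm23127 and Mir1956), so that a few UMIs could belong to either.

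**Figure D2:**
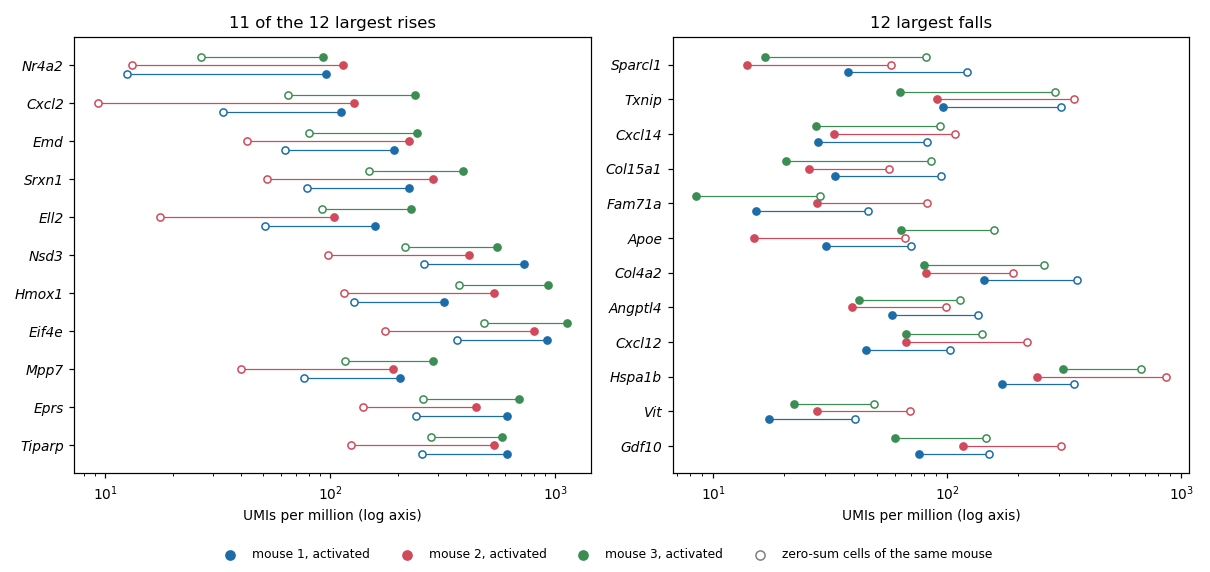
CPM (x axis, log scale) of 11 of the 12 genes with the largest rises (left) and the 12 with the largest falls (right), with 1 line per mouse from zero-sum cells (open) to activated progenitors (filled). Every line of a gene points the same way, and Cxcl2 reaches from 9.26 to 238 CPM.

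AP-1 subunits split in direction. Of 11 tested, 6 rose and 3 fell, with a median log2 difference of 0.37 beside 0.00 for all genes tested. Fos, the founding subunit, stood at 2196, 1856 and 1084 CPM in activated progenitors against 4524, 3696 and 3251 CPM (-1.08 ± 0.11, edgeR adjusted p = 0.000284), and Jun at 1612, 1262 and 935 CPM against 3164, 2605 and 2559.5 CPM (-1.03 ± 0.09, edgeR adjusted p = 0.000166). For both genes the ranges of the classes were apart. In contrast, Fosl2, a relative of Fosl1, stood at 502, 606 and 551 CPM against 224, 183 and 286 CPM (1.39 ± 0.14, edgeR adjusted p = 0.000274), and Maff, a small partner without an activation domain, rose by 1.18 ± 0.19. Thus the AP-1 genes with the highest and lowest differences were relatives, Fosl2 and Fos.

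Immediate early genes outside AP-1 split as well: 8 of 21 tested rose and 7 fell, with a median of 0.14. This median was -0.03 without mouse 2, -0.09 against zero-sum cells matched in depth and -0.13 in the gate without Nr4a3. Nr4a1 rose from 294, 369 and 374 CPM to 667, 745 and 529.6 CPM (1.02 ± 0.12, edgeR adjusted p = 0.000515), so that both Nr4a relatives outside the gate were higher. Ier3, a gene against apoptosis, rose by 0.95 ± 0.12, whereas Ier2 fell by 1.03 from 657, 841 and 548 CPM to 316, 439 and 197 CPM. Feedback genes of MAP kinase signalling divided evenly, with 5 of 14 higher and 5 lower and a median of 0.05 that turned to -0.06 with scaling by total UMIs. Without mouse 3 there were 5 higher and 3 lower (median 0.20), and with cells thinned to 3000 UMIs 4 and 2 of 11 (0.31). Errfi1, an inhibitor of the EGF receptor, rose by 0.92 ± 0.10 and Dusp10 by 0.81 ± 0.08, while the phosphatase Dusp1 fell by 0.66.

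Of 18 NF-kB genes tested, 12 rose and 1 fell, with a median of 0.39 beside 0.00 for all genes. With cells chosen on Nr4a3 alone, 7 were higher and 1 lower (median 0.25). The median was 0.30 without mouse 2 and 0.53 without mouse 1. Nfkb1, which encodes the p50 precursor, stood at 740.3, 559 and 993 CPM against 315, 141 and 463 CPM (1.54 ± 0.16, edgeR adjusted p = 0.000281). Ptgs2, the inducible cyclooxygenase, stood at 1513, 1747 and 1573 CPM against 683, 519 and 894 CPM (1.35 ± 0.16, edgeR adjusted p = 0.000508), and its ranges were far apart. Rel and Bcl3, a subunit and a co-regulator, rose by 1.18 ± 0.13 and 1.01 ± 0.18. Among genes outside the rule for naming, the adhesion gene Vcam1 was the 1 that fell, by 0.59, and the inhibitor gene Nfkbia did not pass the test at 0.13 ± 0.08.

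Of 13 chemokines tested, 7 rose and 4 fell, with a median of 0.46. This median was 0.29 without mouse 2, 0.15 with cells thinned to 3000 UMIs and 0.12 in the gate without Nr4a3. It was 0.61 without mouse 1 and 0.75 with the stricter gate. Next to Cxcl2, the related Cxcl1 stood at 2303, 2927 and 3830.3 CPM against 1253, 929 and 2030.3 CPM (1.27 ± 0.15, edgeR adjusted p = 0.000514), and Ccl2, which attracts monocytes, at 1547, 2047 and 3468 CPM against 727, 624 and 1669 CPM (1.40 ± 0.13, edgeR adjusted p = 0.000183). Zero-sum cells of mouse 3 were above activated progenitors of mouse 1 for Ccl2. Cxcl12 and Cxcl14, both made constitutively by stromal cells, fell by 1.20 and 1.56. With the stricter gate 6 chemokines were higher and 1 lower. In the IL-6 family 5 of 8 rose and 1 fell, beside 11.1% and 6.97% over all genes tested. Lif led at 0.95 ± 0.14 and Il6 followed at 0.91 ± 0.18 on the log2 scale. DESeq2 called 2 of the family higher and 0 lower, and the stricter gate 4 and 0. With separate parts of the UMIs for gating and testing there were 3 and 0, and without mouse 1 6 of 9 and 0. Among growth factors, 8 of 17 rose and 5 fell, with a median of 0.10 that turned to -0.02 when only total UMIs were used. With the stricter gate 3 of 14 were higher and 3 lower, and without mouse 3 the counts were 5 and 3. The EGF-like ligand Hbegf rose by 0.70 ± 0.12, but did not pass with the stricter gate at 0.30 (edgeR adjusted p = 0.326), and Vegfa rose by 0.46 ± 0.09, but stood at 0.01 with cells chosen on Nr4a3 alone (edgeR adjusted p = 0.979) and at 0.38 without mouse 3 (0.0636). In contrast, Fgf10, a growth factor of adipogenesis, fell by 1.17.

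**Figure D3:**
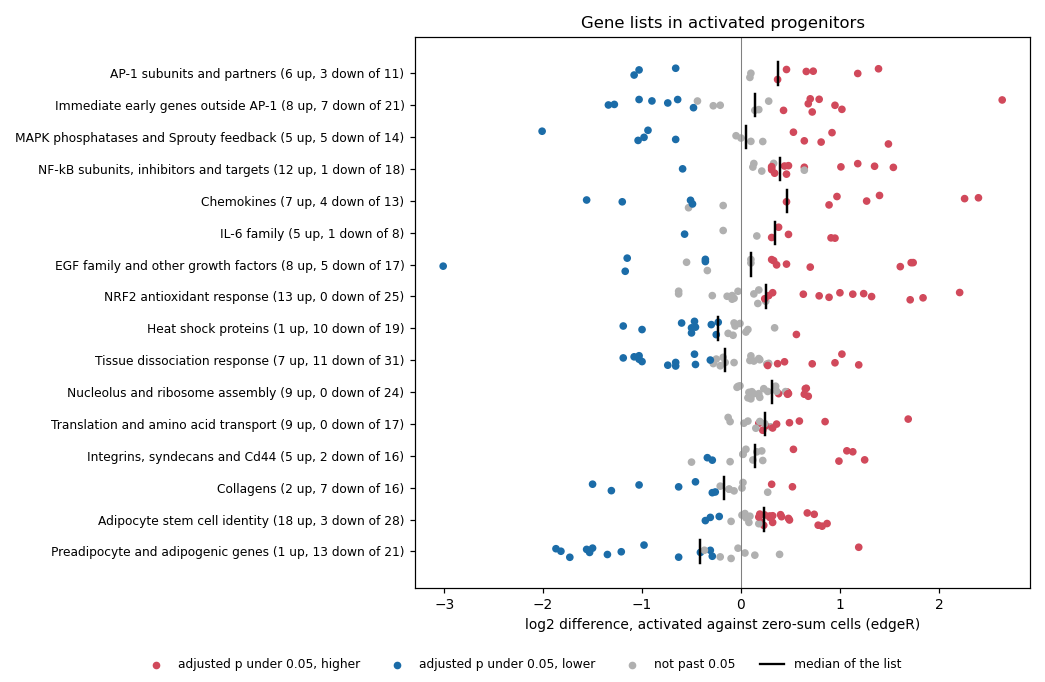
Log2 difference between activated progenitors and zero-sum cells (x axis, edgeR) of each tested gene in 16 lists (y axis), red or blue past an adjusted p of 0.05 and grey otherwise, with a bar at the median of the list. The NF-kB and NRF2 lists lean to the right and the heat shock and preadipocyte lists to the left, while the AP-1 and immediate early lists hold called genes on both sides.

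Of 25 NRF2 target genes tested, 13 passed as higher and 0 as lower, with a median of 0.25. Over all genes tested, 11.1% were higher and 6.97% lower. The absence of lower genes depended on the setting: 4 were lower and 11 higher when only total UMIs scaled the counts. With separate parts of the UMIs for gating and testing, 12 were higher and 2 lower. With cells chosen on Nr4a3 alone there were 11 and 2, with thinned cells 10 and 1, and without mouse 1 11 and 1. Gclc, which makes the first step of glutathione synthesis, stood at 181, 184 and 285 CPM against 73.7, 74.3 and 140.2 CPM (1.32 ± 0.08, edgeR adjusted p = 4.38e-05). The ranges were apart. Txnrd1, thioredoxin reductase, rose by 1.24 ± 0.17 next to Srxn1 and Hmox1. The gene of NRF2 itself, Nfe2l2, named after its value was seen, stood at 393, 396 and 436 CPM against 256, 240.1 and 272 CPM (0.79 ± 0.07, edgeR adjusted p = 0.000121). In the opposite direction, Txnip, the thioredoxin-binding protein, fell from 307, 348 and 290.2 CPM to 96.2, 90.2 and 62.7 CPM (-1.82 ± 0.10, edgeR adjusted p = 3.51e-05).

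Of 19 heat shock genes tested, 10 were lower and 1, the heat shock factor gene Hsf1 (0.56 ± 0.10), was higher, with a median of -0.23. Without mouse 3, 6 were lower and 2 higher, with cells chosen on Nr4a3 alone 5 were lower, and DESeq2 called 7 lower and 0 higher. The call of Hsf1 was lost in 6 of 20 alternatives, among them the stricter gate, at 0.39 (edgeR adjusted p = 0.0794). Hspa1b stood at 172, 241 and 313 CPM against 347, 859 and 672 CPM (-1.19 ± 0.12, edgeR adjusted p = 0.000252). Hspa1a stood at 273, 382 and 494 CPM against 526, 1052 and 959 CPM (SE of the log2 difference 0.08, edgeR adjusted p = 0.000113). Both were low in the activated progenitors of each mouse. A list of 31 genes known to respond to tissue dissociation, which shares Fos, Jun and the Hspa1 genes with the lists above, had 7 higher and 11 lower, with a median of -0.16, and among them Cebpb rose by 1.19 ± 0.13. Without mouse 2 the list had 7 higher and 18 lower (median -0.36), without mouse 3 it had 8 and 9 (-0.01), and with scaling by total UMIs 6 and 17 (-0.29). With cells chosen on Nr4a3 alone, 10 of these were higher and 9 lower, and the median was 0.01. The part of the digestion in any of these differences was not tested, since all cells of a mouse went through it.

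Many genes for making ribosomes and protein were higher. Of 80 cytosolic ribosomal protein genes tested, 64 rose and 0 fell at a median of 0.22, and scaling by total UMIs left 11 called and a median of 0.10. DESeq2 called 4 of them as higher, the stricter gate 12 and the gate without Nr4a3 7, and 35 were called without mouse 3. Rps12 stood at 4181, 4319.8 and 4102 CPM against 3647, 3922 and 3667 CPM, a log2 difference of 0.29 ± 0.05. In the nucleolar list 9 of 24 rose and 0 fell, with Gnl3 at 0.68 ± 0.09 and Fbl at 0.66 ± 0.07, and 9 of 17 translation and amino acid transport genes rose and 0 fell, among them Slc7a1 at 0.85 ± 0.09. Without mouse 3, 5 nucleolar genes were higher. Of 89 nuclear genes of the respiratory chain, 3 were higher (3.37%) and 1 lower (1.12%), beside 11.1% and 6.97% over all genes tested, with a median of 0.03, and without mouse 3 there were 0 in either direction. The mitochondrial share of UMIs was lower in activated progenitors, as given above, and its part in these differences was not tested.

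Many ASC genes were higher and many PreA genes lower, and both counts depended on how strictly the progenitors were gated. Of 28 ASC genes tested, 18 rose and 3 fell (median 0.23), and without mouse 3 there were 12 and 0. DESeq2 called 10 higher and 0 lower, and scaling by total UMIs gave 11 and 3. With separate parts of the UMIs for gating and testing there were 7 and 3 (median 0.11). Procr, the protein C receptor, stood at 636, 821 and 765 CPM against 406, 489 and 421 CPM (0.87 ± 0.07, edgeR adjusted p = 8.21e-05), and Sema3e and Il33 rose by 0.82 ± 0.08 and 0.78 ± 0.12, and by 0.42 and 0.48 with the stricter gate. Of 21 PreA genes tested, 13 fell and 1, Cebpb, rose (median -0.41). With the stricter gate, 5 of 28 ASC genes were higher and 1 lower, with a median of 0.05. Of 20 PreA genes tested with it, 5 were lower and 1 higher, with a median of -0.29. The calls over all genes also fell with that gate, to 597 higher and 330 lower of 10509 tested. In the NF-kB and NRF2 lists, 9 of 18 and 12 of 23 genes tested were higher there.

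The 12 largest falls differed in how far they held with the stricter gate. That gate also left fewer cells, and the cause of the changes was not tested. Sparcl1, a matricellular protein gene high in PreAs, fell from 122, 57.7 and 81.3 CPM to 37.8, 14 and 16.7 CPM (-1.87 ± 0.11, edgeR adjusted p = 4.13e-05), but by 0.56 with the stricter gate (edgeR adjusted p = 0.045). Cxcl14, Col15a1 and Apoe fell by 1.56, 1.50 and 1.35, and with the stricter gate stood at -0.48, -0.27 and -0.36 without passing the test (edgeR adjusted p = 0.116, 0.38 and 0.428). Col4a2, a basement membrane collagen, and the Areg gene Gdf10 fell by 1.31 and 1.10, and by 0.58 each with the stricter gate. Txnip, Angptl4, an inhibitor of lipoprotein lipase, and Hspa1b fell by 1.82, 1.22 and 1.19, and still by 1.67, 1.07 and 1.11 there. Fam71a fell by 1.49, and by 1.62 there. Cxcl12 and Vit, a matrix protein gene, fell by 1.20 and 1.10, and by 0.61 and 0.50 with the stricter gate. Pparg, the master regulator of adipogenesis, was low in both classes, at 2.17, 2.5 and 3.33 CPM against 10.5, 8.17 and 9.96 CPM (-1.73 ± 0.21, edgeR adjusted p = 0.000599). Pparg was chosen after its value was seen.

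Matrix genes changed in both directions. Of 16 collagens tested 7 fell and 2 rose (median -0.17), the stricter gate left 1 lower and 1 higher, and without mouse 2 there were 11 lower. In the list of integrins, syndecans and hyaluronan genes 5 of 16 rose and 2 fell. Has1 and Has2, which synthesize hyaluronan, rose by 1.25 ± 0.25 and 1.07 ± 0.12, and Tnfaip6, which links proteins to hyaluronan, stood at 2399.9, 2719 and 2437 CPM against 1589.7, 907 and 1775 CPM (0.99 ± 0.19, edgeR adjusted p = 0.008). The hyaluronan receptor gene Cd44 did not follow them, at 38.1, 30.7 and 52.5 CPM against 55.3, 36.7 and 66.9 CPM (-0.29 ± 0.09, edgeR adjusted p = 0.0498). Its call was lost in 12 of 20 alternatives and its sign turned in 1, and with the stricter gate it stood at -0.13 (edgeR adjusted p = 0.602). Adamts9, a protease of versican, rose by 2.08 ± 0.25. The elastic fibre and leucine-rich list had 5 higher and 5 lower of 24, with a median of 0.11 that turned to -0.01 with scaling by total UMIs.

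Several of the named genes were graded along the 4-gene sum. Averaged over the mice, Cxcl2 stood at 35.8, 90.2, 121, 174 and 195 CPM in cells with sums of 0, 1 to 2, 3 to 5, 6 to 9 and at least 10. Fos stood at 3824, 3038, 2278, 1688 and 1006 CPM in the same order. Both courses had the same direction at every step in each of the 3 mice. Srxn1 went from 93.2 to 395 CPM, Emd from 61.9 to 322 CPM and Eif4e from 341 to 1235 CPM between the ends. Jun went from 2776 to 802 CPM, Hspa1a from 846 to 251 CPM and Txnip from 315 to 44.6 CPM. Sparcl1 fell mostly over the low sums, from 86.8 CPM at 0 to 27.1 CPM at 3 to 5, and stood at 21 CPM at the top. These levels are descriptions. The genes were named by their difference between sums of 0 and of at least 3 in these same cells. Their direction between those groups was therefore given in advance.

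**Figure D4:**
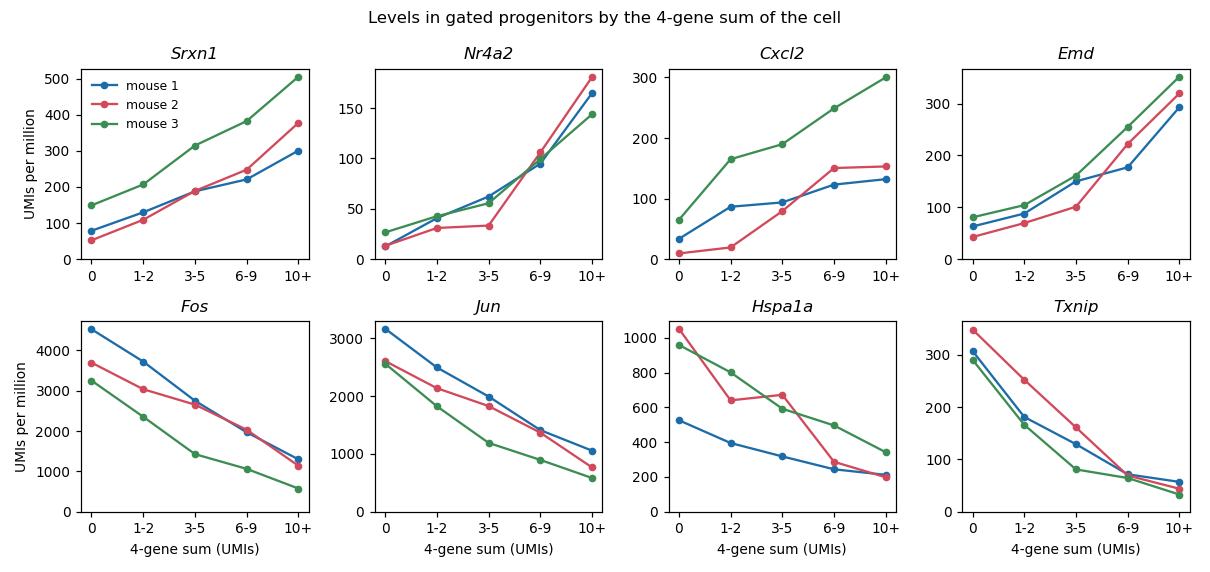
Level of 8 genes in CPM (y axes, each from 0) in gated progenitors binned by their 4-gene sum (x axes), with 1 line per mouse. Srxn1, Nr4a2, Cxcl2 and Emd are highest at sums of at least 10, and Fos, Jun, Hspa1a and Txnip are highest at a sum of 0, in all 3 mice.

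Activated progenitors with and without Nptx2 or Gap43 stood close to each other in Srxn1 and Nr4a2, but not in Cd55 and Procr. Either gene was detected in 48.5%, 54% and 51.7% of activated progenitors. Averaged over the mice, cells with them held Srxn1 at 299.7 CPM and cells without them at 298 CPM, and Nr4a2 stood at 101 and 99.8 CPM. The ASC marker Cd55 was further apart, at 811 CPM with and 661 CPM without, and Procr went the other way, at 701 and 787 CPM. No test was run on these values, since both genes belong to the gate.

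To ask whether the same sum went with the same genes in another cell class, the difference within progenitors was set against the difference between preadipocytes with sums of at least 3 and of 0. Of 11927 genes tested, 220 (1.84%) differed between the classes at an edgeR adjusted p under 0.05, and 179 of them had the lower difference in progenitors. With no filter on low counts, 285 had the higher and 258 the lower difference in progenitors. Leaving out mouse 1, 2 or 3 gave 144, 110 and 52 genes. The activated preadipocytes were few, 229 cells in all, and Icam1 and Fabp4 had selected the class.

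Srxn1 rose in both classes. It stood at 178, 229 and 219 CPM in preadipocytes with a sum of at least 3 and at 53.6, 48.1 and 71.5 CPM in those at 0, and the difference of 1.99 ± 0.22 on the log2 scale was not told apart from that of progenitors (-0.19 ± 0.28, edgeR adjusted p = 0.836). Fos and Jun also had no detectable contrast, with 0.19 and 0.25 between the classes (edgeR adjusted p = 0.734 and 0.516). Of the 25 NRF2 genes 3 differed between the classes, of 18 NF-kB genes 3, of 19 heat shock genes 5 and of 80 ribosomal protein genes 0. Beside 1.84% over all genes tested, the shares of the NRF2, NF-kB and heat shock lists were high. The lists with the highest shares were clotting control, with 6 of 12, sterol synthesis, with 8 of 18, tubulins, with 4 of 12, and collagens, with 5 of 17.

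The largest contrast was in Flrt3, a membrane protein of cell adhesion and axon guidance. In progenitors it stood at 98.1, 111 and 96.9 CPM against 40.1, 32.9 and 38.8 CPM, and in preadipocytes at 3.48, 3.13 and 2.79 CPM against 24.3, 27.8 and 16.7 CPM. The preadipocyte values with a sum of at least 3 rest on 1, 4 and 2 UMIs. Over the mice, these 7 UMIs against 724 gave a ratio of rates of 0.13 (exact 95% interval 0.052 to 0.269, counting error only). The fitted directions were opposite, with imprecise log2 differences of 1.54 ± 0.12 and -2.83 ± 0.47 (contrast 4.36 ± 0.43, edgeR adjusted p = 4.66e-05). Hmox1 was likewise opposed, since preadipocytes stood at 97.5, 82.2 and 179 CPM against 177, 192 and 252 CPM (contrast 2.56 ± 0.31, edgeR adjusted p = 0.000267). Hes1, a target of Notch, Cwc25, a splicing factor, and Mylip, which degrades the LDL receptor, had contrasts of 1.90, 1.72 and 1.32.

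In the other direction, the difference in progenitors was below that in preadipocytes. Aoc3, an amine oxidase of the adipocyte surface, stood at 4.56, 4.26 and 4 CPM against 26.8, 22.9 and 17.7 CPM in progenitors and at 174, 122 and 115 CPM against 147, 122 and 122 CPM in preadipocytes (contrast -2.39 ± 0.17, edgeR adjusted p = 2.33e-06). Cd44 went up in preadipocytes, from 58.6, 53.3 and 74.3 CPM to 132, 196 and 217 CPM, and its contrast was -2.04 ± 0.20 (edgeR adjusted p = 4.66e-05). Kitl, the ligand of Kit, and Sox9, a transcription factor, also had opposite signs in the classes, with contrasts of -2.21 and -2.22, although the stricter gate left Sox9 at -0.48 in progenitors (edgeR adjusted p = 0.254), and Trabd2b, an inhibitor of Wnt proteins, had one of -2.27. Aoc3 was higher in preadipocytes than in progenitors of either class, and zero-sum progenitors held more preadipocyte markers than activated ones, as given above. The part of that in these contrasts was not tested.

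**Figure D5:**
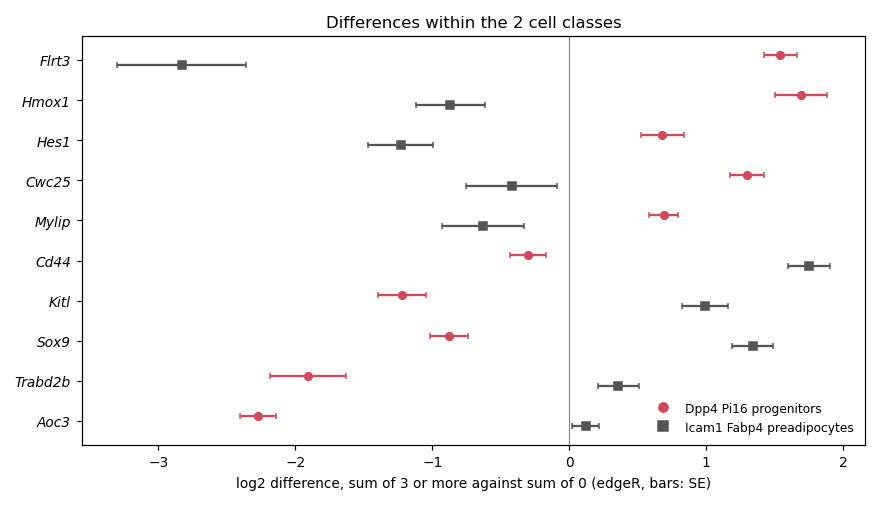
Log2 difference between cells with a 4-gene sum of at least 3 and of 0 (x axis, edgeR, bars are SE) for the 10 genes with the largest contrasts, in Dpp4 Pi16 progenitors (circles) and Icam1 Fabp4 preadipocytes (squares), from counts summed per mouse in 3 mice. Flrt3 lies at 1.54 in progenitors and -2.83 in preadipocytes, and Cd44 at -0.30 and 1.75.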

How the data were processed

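The deposited files hold UMI counts per gene and barcode, which the authors made with Cell Ranger and left unnormalized. The processing notes name Cell Ranger 2.1.1 and mm10, and the file headers name version 4.0.0. No barcode held fewer than 500 UMIs. The members and gene lists were chosen with earlier results of these data known, and the 34 lists are not independent evidence.

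Counts were summed per mouse and class and tested in edgeR 4.0.16 (filterByExpr, TMM, quasi-likelihood, Benjamini-Hochberg over all genes tested, mouse as a block, R 4.3.3), with SEs derived from the F statistic. Gate genes were left out. Both classes come from the same animal, and over 11235 genes the paired deviations from the class means gave r = 0.447, 0.653 and 0.579 (Pearson). The edgeR steps were tested on simulated data. These held no mouse effect and no choice of cells on their own counts, so they say nothing of error from either. Cells were chosen on their own counts, so adjusted p-values of genes that follow the gate genes or depth are not error rates of an independent grouping.

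Named genes are the gate genes, Srxn1, the 12 largest rises and falls (adjusted p under 0.05, 1 sign in all mice, at least 50 CPM in a class, no mitochondrial, Gm or Rik symbols), up to 4 genes per list by size at 20 CPM or more, and the 5 largest contrasts in each direction. Of the 12 largest rises, 1 is not reported here. Pairs of libraries shared 52, 81 and 64 barcodes, and activated progenitors of mice 1 and 3 shared 2. Doublets were not called. In their place, cells in the top 10% of UMIs were removed as an alternative. Of 32285 gene identifiers, 32158 were found in GENCODE M21, and promoter sequences come from RefSeq (GRCm38.p6). DESeq2 1.42.0 was an alternative test.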

Additional observations from a re-analysis of the deposited data

Results flagged for a closer look

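A difference between progenitors and preadipocytes under the same comparison, found by a test of the difference itself, applied to the 10 genes named for it. The difference in progenitors exceeded that in preadipocytes, on the log2 scale, by 4.36 for Flrt3, 2.56 for Hmox1, 1.90 for Hes1, 1.72 for Cwc25 and 1.32 for Mylip. It was below that in preadipocytes for Aoc3 (-2.39), Trabd2b (-2.27), Sox9 (-2.22), Kitl (-2.21) and Cd44 (-2.04). Flrt3 and Aoc3 passed the threshold under each of the 10 alternatives run for them, with ranges of 4.10 to 10.31 and -2.52 to -2.04. Mylip was the least stable, passing in 5 of 10 alternatives. The preadipocyte side rested on 36, 92 and 101 cells with a sum of at least 3, which held 7 UMIs of Flrt3 in all and 26 each of Cwc25 and Mylip.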

How the results depend on the processing

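Numbers of genes called higher and lower, 1247 and 782 with the settings reported, stayed within 1.5 times with RLE normalization, sums of at least 5 or 2, comparison cells with sums of 0 to 2, depth-matched zero-sum cells, gating at 3000 UMIs, 10% mitochondrial UMIs, the top 10% of cells removed and, added after seeing the data, the gate without Nr4a3. Without the replicate block the counts were 29 and 18, although both classes of a mouse come from 1 animal. They were 826 and 1787 with library size only, 556 and 215 with DESeq2, 778 and 406 with cells thinned to 3000 UMIs, and 770 and 405 when the UMIs of each cell were split at random, 1 part for gating and 1 for testing. No filter on low counts gave 1942 higher and 951 lower of 18769 genes. Of alternatives added after seeing the data, the stricter gate gave 597 and 330, and Nr4a3 alone 714 and 326. Leaving out each replicate gave 695 to 1200 higher and 280 to 735 lower, the fewest without mouse 3. The cause of these shifts was not tested, but fewer samples, cells or UMIs entered several of them.

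The 220 genes with a contrast to preadipocytes became 543 with no filter, 4 with no replicate block, 117 thinned, 134 at sums of at least 5, and 52 to 144 with a replicate left out. The share of 45.2% became 30.8% at sums of at least 5, 55.8% at 2, 35.8% when a sum of at least 2 was asked of cells thinned to 3000 UMIs and 42.4% to 49.8% without a replicate. Of 2994 values of 150 named genes under alternatives, 2673 kept their side, 301 no longer passed, 17 newly passed and 3 of called genes changed sign: Cd44 (0.16) and Sqle (0.08) in the gate without Nr4a3 and Ptgis (-0.06) in the stricter gate. Among genes not called, 10 further values changed sign, none past the threshold, and count as kept. The loss of the replicate block accounted for 122 of the 301. Precision is limited by 3 mice and, for preadipocytes, by few cells.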

Other observations

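The remaining lists are given by their counts, to be read beside 11.1% higher and 6.97% lower over all genes tested. Metallothioneins and zinc transporters had 3 of 7 tested higher and 1 lower, with Mt1, which binds zinc, at 4119.8, 8372 and 5381 CPM in activated progenitors against 3089, 3404 and 3851 CPM (log2 difference 0.85 ± 0.16, edgeR adjusted p = 0.00652). Prostaglandin genes had 3 of 7 higher and 0 lower, Ptgs2 among them, and glycolysis and hypoxia genes 3 of 15 higher and 0 lower, with Hk2, a hexokinase, at 1.07 ± 0.18. Clotting and urokinase genes had 4 of 12 higher and 2 lower. Thbd, which turns thrombin against clotting, rose by 0.71 ± 0.13, and F3, tissue factor, fell by 1.18 from 32.3, 36.7 and 25.5 CPM to 13.2, 12.3 and 12.1 CPM, but did not pass with the stricter progenitor gate, at -0.33 (edgeR adjusted p = 0.514). Glucocorticoid and circadian genes had 6 of 21 higher and 3 lower, with Bhlhe40 at 0.91 ± 0.13 and Tsc22d3 at -0.88 ± 0.07. Matrix proteases and their inhibitors had 6 of 18 higher and 3 lower, and 3 and 2 without mouse 3.

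Genes of growth arrest and p53 had 4 of 16 higher and 5 lower, actin and SRF genes 4 of 27 higher (14.8%) and 7 lower, and tubulins 3 of 12 higher and 1 lower. Without mouse 3, p53 genes had 2 higher and 3 lower and actin genes 4 and 3. Interferon genes outside the gate had 5 of 22 higher and 1 lower (3 and 0 without mouse 1), cell cycle genes 2 of 15 higher (13.3%) and 0 lower, and sterol synthesis genes 1 of 18 higher and 4 lower. Without mouse 1 the sterol counts were 1 and 0, without mouse 3 they were 0 and 1, and DESeq2 gave 0 and 0. Stress of the endoplasmic reticulum gave 2 of 19 higher (10.5%) and 1 lower (5.26%), near the shares over all genes, with Ddit4, an inhibitor of mTOR signalling, at 5.28, 9.69 and 4.66 CPM against 15.4, 47.9 and 12.7 CPM. Without mouse 2 that list had 3 higher and 3 lower, and with scaling by total UMIs 2 and 4. Nerve injury genes, the list that would go with Gap43 by name, had 1 of 11 higher and 1 lower (9.09% each), also near the shares over all genes: Basp1, a growth-cone protein, rose by 0.70 ± 0.07, and Stmn4 fell by 0.36, with its call lost in 4 of 20 alternatives. Of 10 genes of MHC class I presentation 0 passed in either direction with edgeR, against 2 lower when only total UMIs scaled the counts and 2 lower without mouse 2.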
